A study of Mus musculus with 12 samples.

Results

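The Hoxc cluster is the group of 9 Hox genes (Hoxc4, Hoxc5, Hoxc6, Hoxc8, Hoxc9, Hoxc10, Hoxc11, Hoxc12 and Hoxc13) on mouse chromosome 15. Its chromatin was described in mouse mesenchymal stem cells by 2 marks of the same histone residue. H3K27ac is acetylation of lysine 27 of histone H3 and marks active promoters and enhancers, and H3K27me3 is trimethylation of that lysine by a Polycomb complex and marks silenced genes. A region was taken as a member where it overlapped the GENCODE gene body of a Hoxc gene or the 50 kb on either side of it (mm10). This gave 11 of the 59664 regions of the series, 4 of 31617 for H3K27ac and 7 of 28047 for H3K27me3. Hoxc11 to Hoxc4 lay in a single H3K27ac domain and Hoxc13 to Hoxc11 in a long H3K27me3 domain. Both marks lay over a start site of Hoxc13, Hoxc11 and Hoxc4. In old cells H3K27ac over the cluster was 1.21-fold the young level in its main domain and H3K27me3 was 0.836-fold in its main domain, and neither difference passed the test across all regions of its table.

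The libraries came from CUT&RUN, in which an antibody tethers a nuclease to a mark in permeabilised cells and the released DNA is sequenced. Mesenchymal stem cells (MSCs, stromal cells that form bone, fat and cartilage) were compared between young mice of 3 to 5 months and old mice of 18 to 22 months. All cells had been kept at 2% O2 in culture, no other treatment was labelled, and the cells of a sample were split between the antibodies. The 12 libraries form 4 groups of 3, young and old for each mark, and since no label says that samples of a group came from separate animals, p-values measure only the spread between these samples.

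Depth ranged from 2750953 to 5541429 mapped reads per H3K27ac library and from 3622108 to 9947515 per H3K27me3 library, and old replicate 2 was the shallowest for both marks. The share of H3K27me3 reads that fell within regions was 62.3% to 66.6% in young and 53.8% to 60.8% in old libraries, whereas for H3K27ac the ranges of 33.7% to 41.4% and 33.4% to 39.2% overlapped. The labelled cell type was checked at marker promoters, where a region within 1 kb of a start site counted as over it. All 9 stromal markers had H3K27ac over a start site, against 1 of 7 blood markers (Csf1r) and 1 of 4 endothelial markers (Pecam1). Ptprc, the pan-leukocyte gene, had a region of neither mark there. The summed H3K27ac signal of the stromal markers was 1189 to 1286 in young and 1188 to 1284 in old libraries.

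Hox genes encode homeodomain transcription factors that give cells their address along the body axis. Within a cluster their order on the chromosome follows the order of the body segments in which they act, with the 3′ genes (Hoxc4, Hoxc5) anterior and the 5′ genes (Hoxc12, Hoxc13) posterior. Polycomb complexes keep the genes that a segment does not use under H3K27me3, Trithorax complexes keep the used ones active, and adult stromal cells retain a Hox pattern of the site they came from. The cluster also encodes Hotair, a long non-coding RNA transcribed antisense between Hoxc12 and Hoxc11, and microRNA genes.

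The sequences below are those that the regions bear on, all from RefSeq on GRCm38.p6 except the last, which was read from the GRCm38 genome. The microRNAs are shown because they lie inside the acetylated domain, Mir196a-2 between Hoxc10 and Hoxc9 (chr15:102973365-102973386 for the 5p arm) and Mir615 in Hoxc5 (chr15:103014969-103014990 for the 3p arm), both on the plus strand. Capitals mark the seed, bases 2 to 8, which pairs with targets.
mmu-miR-196a-5p: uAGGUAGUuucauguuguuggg
mmu-miR-196b-5p: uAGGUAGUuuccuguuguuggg
mmu-miR-196a-2-3p: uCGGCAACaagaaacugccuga
mmu-miR-615-5p: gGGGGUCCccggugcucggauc
mmu-miR-615-3p: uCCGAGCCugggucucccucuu

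The seed AGGUAGU is shared by miR-196a-5p and by miR-196b-5p of the Hoxa cluster (chr6:52230129-52230150, minus strand). The same mature miR-196a-5p is also encoded by Mir196a-1 in the Hoxb cluster (chr11:96265187-96265208, plus strand). The copies differed in their chromatin: Mir196a-2 and Mir196b lay in H3K27ac regions without H3K27me3, and Mir196a-1 lay in H3K27me3 without H3K27ac. These microRNAs repress Hox messenger RNAs, among them that of Hoxb8.

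Of the 9 Hoxc genes, 1 had an entry in the promoter table. It is the downstream start of Hoxc4, which encodes a 3′ Hox factor of the neck and upper trunk, and it is shown because it lay inside the acetylated domain just past the last H3K27me3 of the gene. The window runs 250 bases before to 50 after the start (chr15:103034145-103034444, plus strand, in an intron of the longer Hoxc4 transcript), and capitals mark the only match to a searched motif.
Hoxc4 promoter: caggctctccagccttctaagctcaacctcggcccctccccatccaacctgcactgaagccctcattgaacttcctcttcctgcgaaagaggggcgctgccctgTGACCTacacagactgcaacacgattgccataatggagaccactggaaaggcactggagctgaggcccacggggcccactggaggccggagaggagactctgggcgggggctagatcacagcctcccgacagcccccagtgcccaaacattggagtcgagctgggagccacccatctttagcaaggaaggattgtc

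The motifs searched on both strands were the core promoter box TATAAA, the Hox-Pbx composite TGATTNAT, the posterior Hox or Cdx motif TTTATGG and the nuclear receptor core motif AGGTCA, which are held by 13.6%, 3.22%, 2.75% and 16.3% of the 32851 promoters in the table. The capitals are AGGTCA on the minus strand, first base at -146. The window held 9 CG dinucleotides against a median of 7 over all promoters, and its GC content was 60.3%.

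The next sequence is the promoter of Gm30528 (chr15:103032231-103032530, minus strand), a RefSeq gene model antisense to Hoxc4. It is shown because it lay wholly in an H3K27me3 region that was listed for young cells only. It held none of the motifs, 3 CG dinucleotides and a GC content of 57.7%.
Gm30528 promoter: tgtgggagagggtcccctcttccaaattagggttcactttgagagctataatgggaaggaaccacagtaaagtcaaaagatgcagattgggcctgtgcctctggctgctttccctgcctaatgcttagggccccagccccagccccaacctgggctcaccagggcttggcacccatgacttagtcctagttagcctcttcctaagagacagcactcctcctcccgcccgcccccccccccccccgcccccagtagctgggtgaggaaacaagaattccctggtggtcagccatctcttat

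The last is the central 300 bases of the H3K27me3 region with the most negative difference, 3′ of Hoxc4 (chr15:103056351-103056650, plus strand). Capitals mark its single CG dinucleotide, and no base of it was masked as a repeat.
Centre of the region: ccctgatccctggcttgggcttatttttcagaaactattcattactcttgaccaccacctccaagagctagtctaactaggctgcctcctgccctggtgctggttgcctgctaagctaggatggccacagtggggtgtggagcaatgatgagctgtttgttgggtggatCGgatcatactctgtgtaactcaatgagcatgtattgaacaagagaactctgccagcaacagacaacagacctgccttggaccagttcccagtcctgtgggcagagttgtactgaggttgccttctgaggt

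Along the cluster H3K27ac covered every Hoxc gene body except that of Hoxc12, and H3K27me3 covered Hoxc13, Hoxc12 and Hoxc11 whole, 75.7% of Hoxc4, 4.86% of Hoxc5 and none of the other 4. The span from the start of Hoxc13 to the end of Hoxc4 (chr15:102921103-103036852) was 115.75 kb long, and 49.1% of it carried H3K27ac only, 47.4% both marks and 3.46% H3K27me3 only. No base of the span lacked both. In bulk cells, marks that overlap on the same DNA and marks on different cells or alleles cannot be told apart, and neither can fewer marked cells and less mark per cell.

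**Figure D1:**
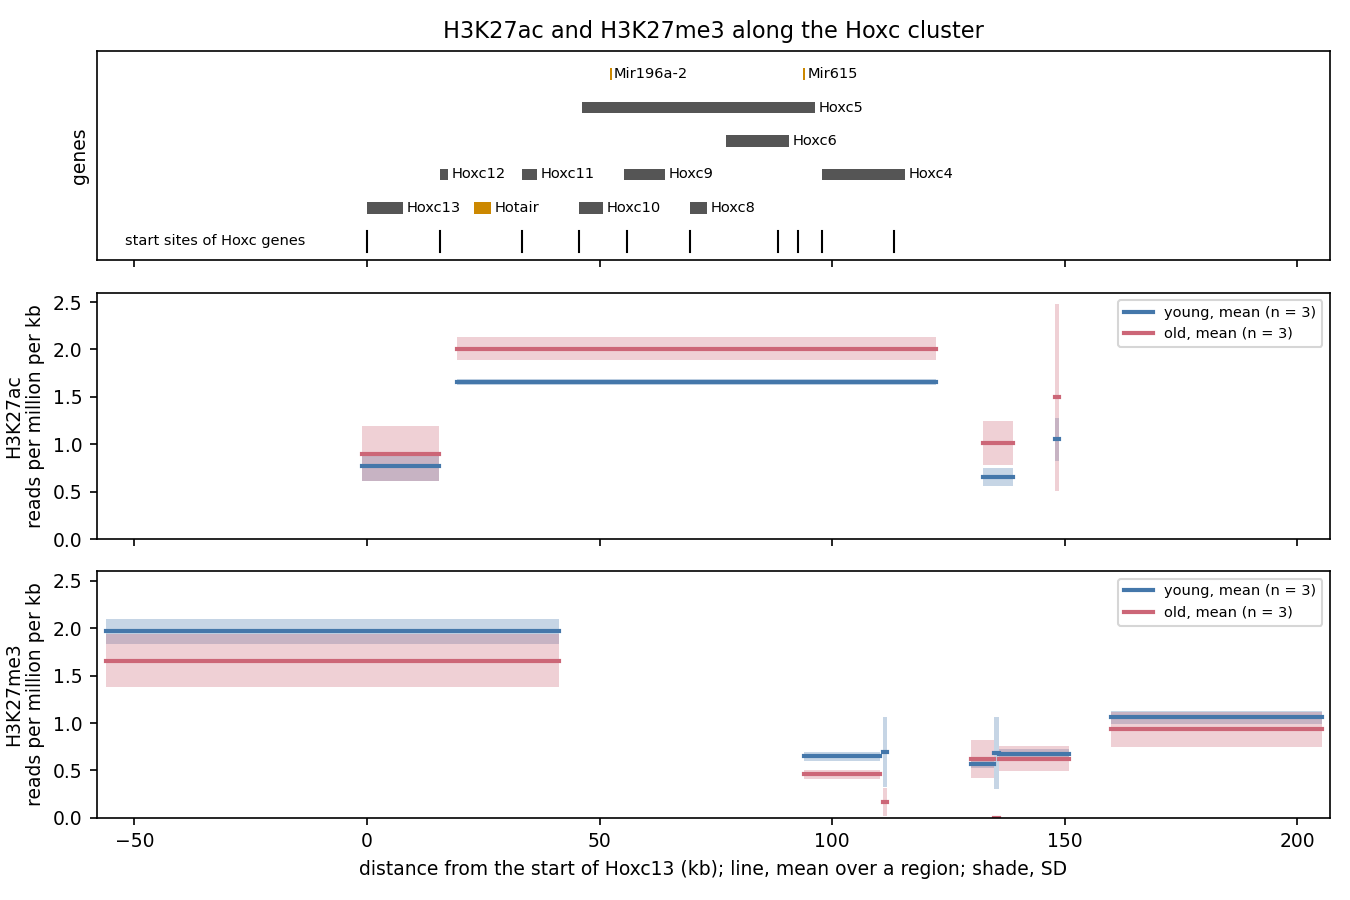
Mean H3K27ac (middle) and H3K27me3 (bottom) in RPM per kb against distance from the start of Hoxc13, for young (blue) and old (red) libraries, n = 3 each, with shaded SD. The top row gives gene bodies and the start sites of the Hoxc genes. A 103-kb H3K27ac domain covered Hoxc11 to Hoxc4 and a 97.5-kb H3K27me3 domain covered Hoxc13 to Hoxc11, with 22.0 kb in common.

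By transcription start site (TSS), 5 genes lay in H3K27ac only. These were Hoxc5, Hoxc6, Hoxc8, Hoxc9 and Hoxc10, which pattern the trunk and, for Hoxc10, the lumbar region and hindlimb. Hoxc12 lay in H3K27me3 only, with its TSS at 102936757 in a 4.0-kb gap between H3K27ac regions (chr15:102936501-102940500). An H3K27ac region ended within 1 kb of that TSS, at 102936500. Hoxc11 and Hoxc13 had both marks over the TSS. Hoxc4 had a TSS at 103018934 in both marks and another at 103034395 in H3K27ac only. The H3K27me3 domain ended at 102962500, between the end of Hoxc11 at 102957708 and the TSS of Hoxc10 at 102966796, and the next H3K27me3 began at 103015001, at the 3′ end of Hoxc5. The 52.5 kb between them, from Hoxc10 to Hoxc5 with Mir196a-2 and nearly all of Mir615, carried H3K27ac only.

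The long H3K27ac domain (chr15:102940501-103043500, 103 kb) contained Hotair, Hoxc11, Hoxc10, Hoxc9, Hoxc8, Hoxc6, Hoxc5 and Hoxc4 with their exons, introns and UTRs. It ranked 222 of 31617 H3K27ac regions by length, and its level per kb, averaged over the 6 libraries, was above 97.1% of them. It held between 87.2% and 92.6% of the H3K27ac signal of the cluster in each library. Its scaled signal (reads scaled to the mapped reads of the library, RPM, divided by the constant 0.5 kb of the deposited tables and then scaled so that the median region agrees between libraries) was 335, 349 and 338 in young and 430.5, 385 and 425 in old libraries. Every old library was above every young one, and the young libraries lay close together. The log2 difference of old minus young was 0.28 (SE 0.06), a level of 1.66 ± 0.0348 RPM per kb in young against 2.01 ± 0.120 in old (SD, n = 3). The limma p was 4.6e-05 and the adjusted p over all H3K27ac regions was 0.0535, just short of the threshold of 0.05.

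This difference depended on the scaling and on the test. On the signal as deposited the log2 difference was 0.16 with a limma adjusted p of 0.81, and the groups overlapped. That scale moved the median of all H3K27ac regions to -0.12, so relative to the median region the difference was of like size. With edgeR on the recovered reads the adjusted p was 0.0227, with DESeq2 it was 0.0652, and without old replicate 2, the shallowest library, the limma adjusted p was 0.0451. Over 16 alternatives the log2 difference ran from 0.16 to 0.33 and the adjusted p from 0.0227 to 0.81, under the threshold in 5.

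The other 3 H3K27ac regions were smaller. The one over Hoxc13, a gene needed for hair and nails, and the upstream side of Hoxc12 (chr15:102920001-102936500, 16.5 kb) had a scaled signal of 20.6, 30.6 and 25.0 in young and 19.9, 39.3 and 30.1 in old libraries. The groups overlapped (log2 0.19, SE 0.20, limma adjusted p = 0.81). Its level was 0.769 ± 0.152 RPM per kb in young and 0.902 ± 0.294 in old cells (SD, n = 3), and averaged over the 6 libraries it was above 13.1% of H3K27ac regions.

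An intergenic region 3′ of Hoxc4 (chr15:103053501-103060000, 6.5 kb) had a scaled signal of 7.51, 8.08 and 9.87 in young and 10.8, 16.5 and 12.2 in old libraries, again without overlap. Its log2 difference of 0.59 (SE 0.25) gave a limma p of 0.0238 and an adjusted p of 0.435, and on the signal as deposited the groups overlapped. A 1-kb region farther 3′ (chr15:103069001-103070000) rested on 1 to 9 reads per library and its groups overlapped (log2 0.21, SE 0.53, limma adjusted p = 0.936).

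Thus 0 of 4 H3K27ac regions passed at a limma adjusted p under 0.05, where 0.0822% of all H3K27ac regions did, and 2 of 4 had an unadjusted p under that value, where 9.6% of all did. edgeR called 1 of the 4, with 0.304% of all regions called. DESeq2 gave an adjusted p for 1 of the 4, the long domain, and did not call it, with 0.019% called, and on the signal as deposited limma called none, with 0.332% called. All 4 had a higher mean in old cells, as did 49.6% of all regions, and in 2 of 4 the old libraries were all above the young ones, as in 7.09% of all. The median log2 difference was 0.24 for the 4 regions and -0.0028 over all regions.

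**Figure D2:**
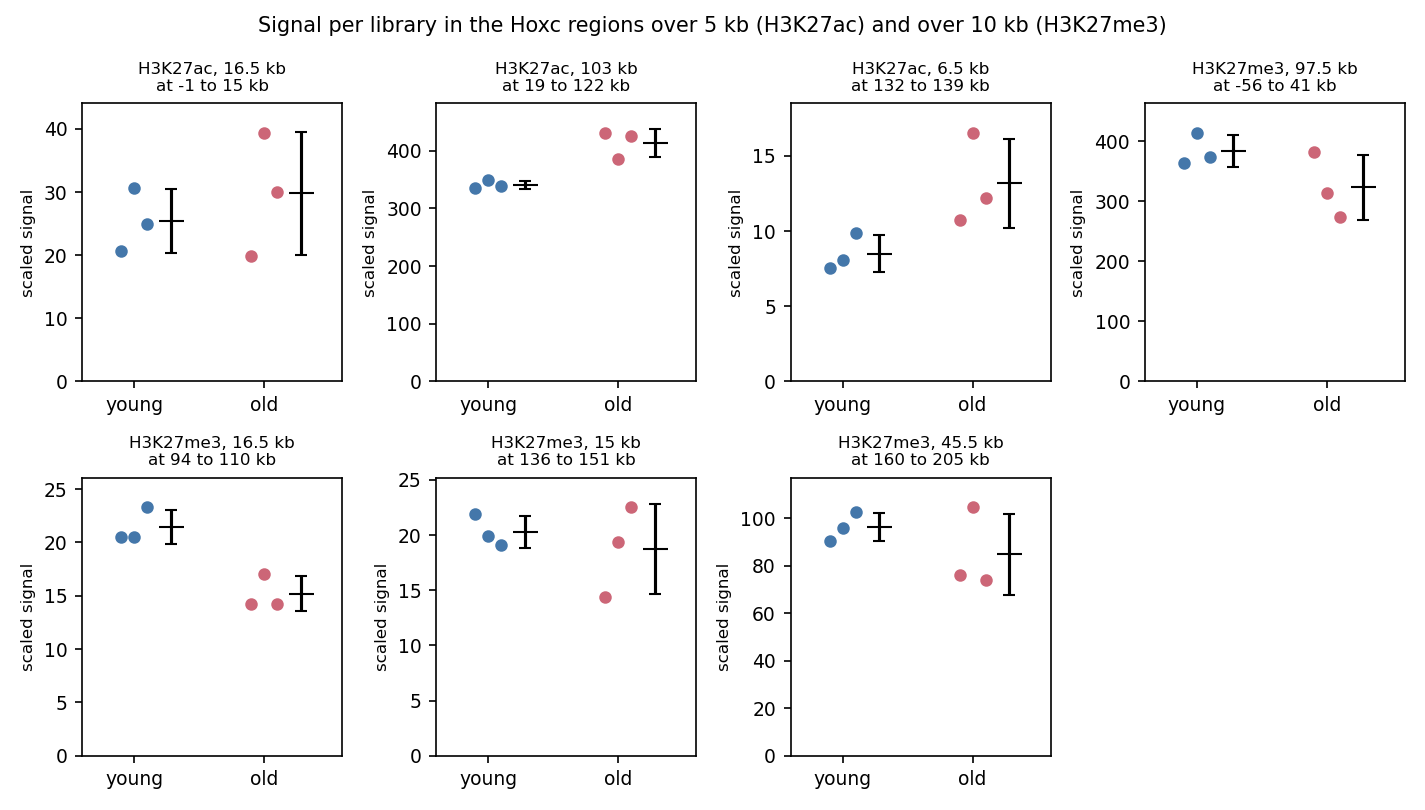
Scaled signal per library (points) with mean and SD (black) in young and old cells, for the 3 H3K27ac regions over 5 kb and the 4 H3K27me3 regions over 10 kb, with positions relative to the start of Hoxc13. Old points lie above young ones in the 103-kb and 6.5-kb H3K27ac regions and below them in the 16.5-kb H3K27me3 region, and overlap elsewhere.

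H3K27me3 was led by the domain on the 5′ side (chr15:102865001-102962500, 97.5 kb). It reached from upstream of the cluster over Hoxc13, Hoxc12, Hotair and Hoxc11, and it held 67.6% to 77.6% of the H3K27me3 signal of the cluster. Averaged over the 6 libraries, its level per kb was above 98.9% of the 28047 H3K27me3 regions. The scaled signal was 364, 413 and 374 in young and 382, 313 and 274 in old libraries. Old replicate 1 lay within the young range and the other two old libraries below it. The log2 difference was -0.26 (SE 0.10), with a limma p of 0.0179 and an adjusted p of 0.239. Without old replicate 3 it was -0.14, and without old replicate 1 it was -0.39 (limma adjusted p = 0.066).

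The region that began at the 3′ end of Hoxc5 and covered the upstream TSS and first part of Hoxc4 (chr15:103015001-103031500, 16.5 kb) lay inside the acetylated domain. Its H3K27me3 signal was 20.5, 20.5 and 23.3 in young and 14.2, 17.1 and 14.3 in old libraries. All old libraries were below all young ones, on the scaled signal and on the signal as deposited. The log2 difference was -0.49 (SE 0.16), with a limma p of 0.00525 and an adjusted p of 0.145, and on the signal as deposited it was -0.61 with an adjusted p of 0.041, where the median of all H3K27me3 regions was at -0.13. Its level was 0.65 ± 0.048 RPM per kb in young and 0.46 ± 0.0496 in old cells (SD, n = 3), and averaged over the 6 libraries it was above 4.57% of H3K27me3 regions.

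The remaining H3K27me3 in the gene span was a 1-kb region in Hoxc4 (chr15:103032001-103033000), which holds the Gm30528 promoter shown above. It had 6, 11 and 3 reads in young and 2, 1 and 0 reads in old libraries. From pooled reads, scaled for depth, the ratio of old to young was 0.219 with an exact 95% interval of 0.0417 to 0.738, which covers counting error only. The limma adjusted p was 0.253. The deposited table lists this region for young cells only, and a listing made from these libraries is not independent of the difference.

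Between 103051001 and 103072000, beyond Hoxc4 and in no Hoxc gene, 3 adjoining H3K27me3 regions followed each other. The middle one (chr15:103056001-103057000), whose centre is printed above, was likewise listed for young cells only and had 10, 8 and 2 reads in young and 0 in each old library. The young mean was 1.24-fold a floor of 3 reads per library, though young replicate 3 with 2 reads was itself under that floor. From pooled reads, scaled for depth, the ratio of old to young had an exact 95% interval of 0 to 0.296, which covers counting error only. The limma p of 0.00153 gave an adjusted p of 0.0903. With edgeR the adjusted p was 0.04 and on the signal as deposited 0.0439. This kilobase lay within the 6.5-kb H3K27ac region that was higher in all old libraries.

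Its neighbours did not show such a difference. The 5-kb region before it (chr15:103051001-103056000) had a signal of 6.12, 5.63 and 5.23 in young and 4.80, 8.53 and 5.39 in old libraries (log2 0.092, SE 0.25, limma adjusted p = 0.909). The 15-kb region after it (chr15:103057001-103072000) had 21.9, 19.9 and 19.1 in young and 14.4, 19.3 and 22.5 in old libraries (log2 -0.13, SE 0.17, limma adjusted p = 0.782). Both overlapped between ages. They were listed for both ages and adjoin the kilobase listed for young cells only. The borders fall where the listing changes, and that listing was made from these libraries, so the contrast is not independent of it. The last region (chr15:103081001-103126500, 45.5 kb), which reaches past the 50-kb window, had 90.5, 96.2 and 103 in young and 76.2, 105 and 73.9 in old libraries (log2 -0.20, SE 0.12, limma adjusted p = 0.472), with old replicate 2 above all young ones.

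Of the 7 H3K27me3 regions 0 passed at a limma adjusted p under 0.05, where 0.488% of all H3K27me3 regions did, and 4 of 7 had an unadjusted p under that value, where 13.9% of all did. edgeR called 1, with 1.4% of all regions called. DESeq2 gave an adjusted p for 2 of the 7 and called neither, with 0.271% called, and on the signal as deposited limma called 2, with 2.76% called. In 6 of 7 the mean was lower in old cells, as in 51.4% of all regions, and in 3 of 7 all old libraries were below the young ones, as in 10.6% of all. The 2 regions listed for young cells only are among these 3 and among the 4 with an unadjusted p under 0.05. One of them (chr15:103056001-103057000) was the edgeR call and was also called on the signal as deposited. Their part in these counts is not independent of that listing. The median log2 difference was -0.26, against -0.0077 over all regions. The share of reads within regions, given above, was also lower in the old H3K27me3 libraries, and its part in these differences was not tested.

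Summed over the cluster, the age differences of the marks had opposite signs. Summed H3K27ac was 366, 389 and 375 in young and 465, 442 and 472 in old libraries. Every old library was higher, with a log2 difference of 0.29, and the exact permutation test (two-sided) gave p = 0.10, the smallest value that 3 against 3 libraries can give. On the signal as deposited the difference was 0.17 (exact permutation p = 0.30). Summed H3K27me3 was 506, 559 and 525 in young and 492, 464 and 390 in old libraries, all lower, with a log2 difference of -0.25 (exact permutation p = 0.10). Without old replicate 3 it was -0.15. With a window of 10 kb, or the gene bodies only, it was -0.27 (exact permutation p = 0.20), and the groups overlapped.

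Because the cells of each sample were divided between the antibodies, the ratio of the sums could be taken within a sample. The log2 ratio of H3K27ac to H3K27me3 over the cluster was -0.47, -0.52 and -0.48 in the young samples and -0.081, -0.069 and 0.28 in the old ones. The young values lay within a narrow range and below all old ones, with means of -0.49 ± 0.03 and 0.04 ± 0.20 (SD, n = 3) and a difference of 0.53. On the signal as deposited the difference was 0.54, again without overlap. Since the tables of the marks were made separately, the ratio has no absolute zero and only its difference between ages is read, and no test was made of it.

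**Figure D3:**
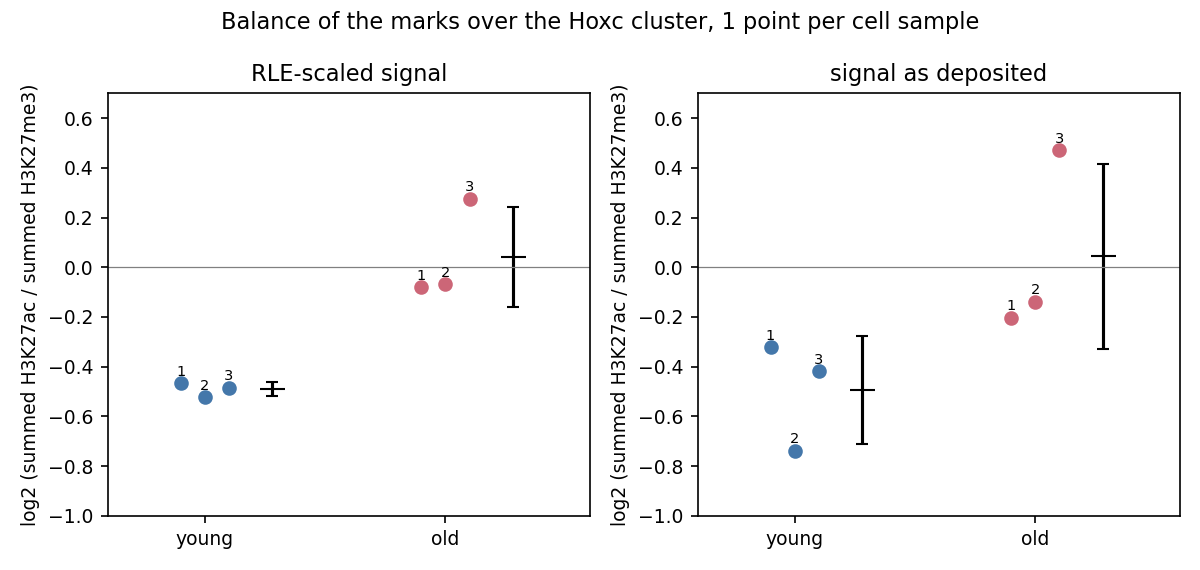
The log2 ratio of summed H3K27ac to summed H3K27me3 over the Hoxc cluster for each cell sample (point, with replicate number) and the mean and SD (black), for scaled signal (left) and the signal as deposited (right). All 3 old samples lie above all 3 young samples on both scales.

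The sides of the cluster were compared by giving each region to the side of its nearest Hoxc TSS, Hoxc9 to Hoxc13 or Hoxc4 to Hoxc8. For H3K27ac this set the Hoxc13 region against the long domain, whose midpoint lies by Hoxc8. The difference between ages of the log2 ratio of 5′ to 3′ signal was -0.094 for H3K27ac (exact permutation p = 0.90) and -0.021 for H3K27me3 (exact permutation p = 1). Since that domain also covers Hoxc11, Hoxc10 and Hoxc9, the H3K27ac ratio does not measure whether the sides of the cluster changed unequally. An exact p cannot go below 0.10 here, and the sign of both values turned when single libraries were left out.

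The other Hox clusters carried other patterns, taken with the same rule. Over the gene span, Hoxa had 59.4% H3K27ac only, 29.3% both marks and 3.71% H3K27me3 only. Hoxd had 83.5% H3K27me3 only and 16.5% both, and the span of Hoxb1 to Hoxb9 was 100% H3K27me3 only. These shares count regions listed for either age. The 14.0-kb H3K27ac region of Hoxd and the 17.0-kb one over Hoxa13 were listed for young cells only. Of the TSSs, 8 of 11 Hoxa genes, 5 of 9 Hoxc genes and none of the 10 Hoxb and 9 Hoxd genes lay in H3K27ac only. Hoxc, like Hoxa, had H3K27ac over most of its span, and it had both marks over a larger share.

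The age differences of the sums were compared within libraries, where scaling cancels, by exact permutation tests adjusted over 6 comparisons. For H3K27ac, Hoxc minus Hoxa was 0.46 on the log2 scale (p = 0.10, adjusted p = 0.30), Hoxc minus Hoxd was 1.57 (exact permutation p = 0.10, adjusted p = 0.30) and Hoxc minus Hoxb was 0.24 (exact permutation p = 0.50, adjusted p = 0.60). The comparison with Hoxb rests on a single 2-kb H3K27ac region. In Hoxc 0 of 4 regions passed the limma test, where 0.0822% of all H3K27ac regions did in either direction. Of 7 Hoxa regions and of 2 Hoxd regions, 1 each passed, with less H3K27ac in old cells. These lay over Hoxd10 and Hoxd9 (chr2:74685501-74699500, log2 -1.36, limma adjusted p = 0.00238) and over Hoxa13 (chr6:52247001-52264000, log2 -1.81, limma adjusted p = 6.46e-08). Both were listed for young cells only, and that listing, made from these libraries, is not independent of the difference. Both are also part of the sums compared here. For H3K27me3 the differences were -0.26 against Hoxa, -0.020 against Hoxb and -0.10 against Hoxd (exact permutation p = 0.20, 0.90 and 0.30, adjusted p = 0.40, 0.90 and 0.45).

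**Figure D4:**
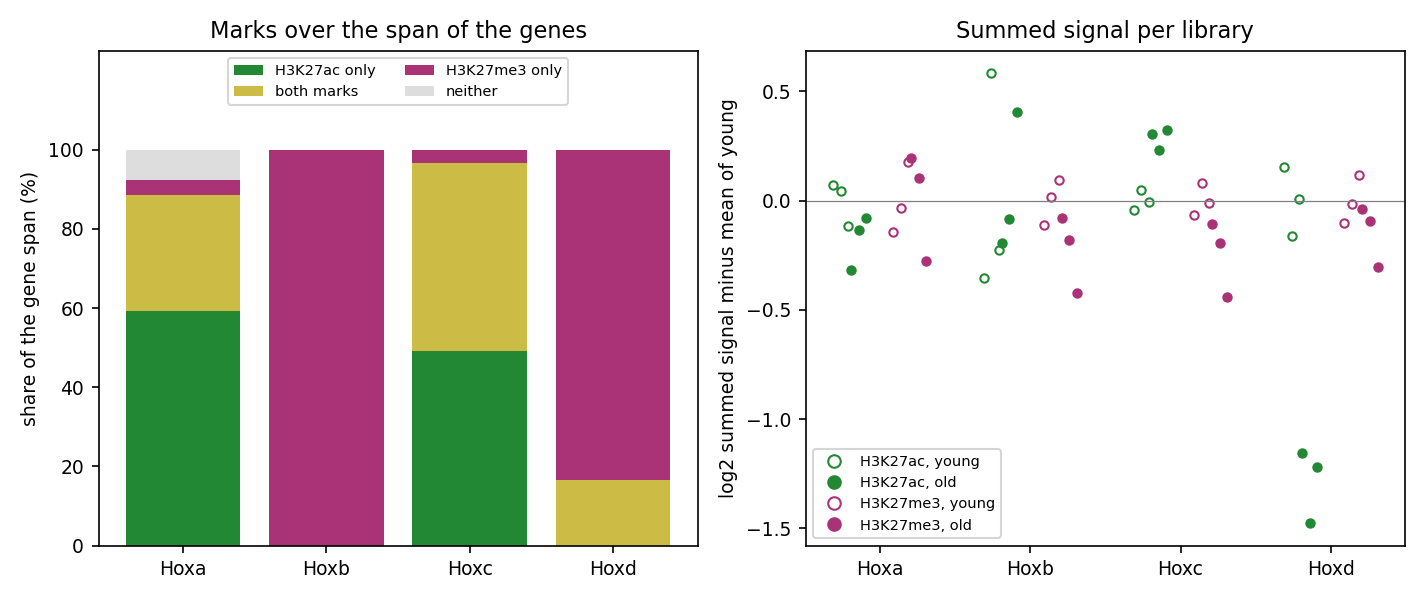
Left, share of the gene span of each Hox cluster (%) in H3K27ac only, both marks, H3K27me3 only or neither, from regions listed for either age. Right, log2 of the summed signal of each library minus the mean of the young libraries, for H3K27ac (green) and H3K27me3 (purple), young open and old filled. Hoxc is the cluster whose old H3K27ac points all lie above its young ones, and its old H3K27me3 points all lie below.

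Genes that act with Hox factors or on their chromatin were read at their own promoters. Here too a region within 1 kb of a TSS counted as over it, whereas Hox genes were read at the TSS base itself. The TALE cofactors, the Pbx, Meis and Pknox homeodomain proteins that bind DNA with Hox factors, had H3K27ac over the TSS in 8 of 9 genes, and 0 of 9 regions passed the limma test. In H3K27me3, 1 of 4 TALE regions passed. It lay over Meis2 (chr2:116056501-116068500), with a scaled signal of 20.9 ± 1.46 in young and 5.91 ± 0.977 in old cells (SD, n = 3), log2 -1.74 and adjusted p = 0.000176, while the H3K27ac region over its TSS had a log2 difference of 0.0038 (limma adjusted p = 0.997). The median log2 difference of the list was 0.16 in H3K27ac and -0.24 in H3K27me3.

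Polycomb and Trithorax genes, whose products maintain the silent or active state of Hox genes, had H3K27ac over the TSS in 16 of 20 genes with a median log2 difference of -0.005, and 0 of 16 regions passed the limma test. In H3K27me3, 7 of 20 had a region and 0 of 7 passed, with a median of -0.17. Rnf2, a ubiquitin ligase of Polycomb complex, had the smallest p there (log2 0.44, limma adjusted p = 0.182). The 3 limb-position genes Pitx1, Tbx4 and Tbx5 had both marks near the TSS and 0 of 3 passed in either mark. Tbx4, a hindlimb factor, had a log2 difference of -0.75 in H3K27ac (limma adjusted p = 0.0607) and 0.43 in H3K27me3 (limma adjusted p = 0.121), with no overlap between ages in either mark. Tbx5, a forelimb factor, had a log2 difference of 0.44 in H3K27ac (limma adjusted p = 0.687) and -0.27 in H3K27me3 (limma adjusted p = 0.136), where all old libraries were below the young ones. Pitx1, another hindlimb factor, had -0.33 and 0.11 (limma adjusted p = 0.591 and 0.777).

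Most members shared a feature of their DNA that the rule did not use, a density of CG dinucleotides above the median of their mark. The long H3K27ac domain had 20.0 CG dinucleotides per kb, more than 85.4% of H3K27ac regions, whose median was 11.2. The 97.5-kb H3K27me3 domain had 14.3 per kb and the 16.5-kb one at Hoxc4 had 13.4, against a median of 8.6 over H3K27me3 regions. The intergenic pair at 103051001 and 103056001 and the 6.5-kb H3K27ac region over it were exceptions, with 3.8, 4.0 and 10.5 per kb, below the medians of their marks. Within the window of the cluster, stretches with H3K27ac only had 21.7 CG per kb, those with both marks 18.1, with H3K27me3 only 11.0 and with neither 6.30. These are descriptions of the DNA under the regions and were not tested.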

How the data were processed

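CUT&RUN signal for H3K27ac and H3K27me3 was taken from the 2 deposited tables of regions, with 3 young and 3 old libraries each, and groups came from the sample labels. Per the submitters' processing notes the authors used Bowtie2 and Picard with mm10 (GRCm38). The region caller and its settings are not given in the sources used here. The deposited signal values, named RPKM by the authors, were whole multiples (100% within 0.02) of 1 read in RPM (reads scaled to the mapped reads of a library) divided by a constant 0.5 kb, not by region length, so the values were handled as signal, and whole reads and depths of 2750953 to 9947515 reads were recovered. The design had assumed RPKM, and the test stayed as designed. Signal was scaled by the median of ratios (RLE), and log2(signal + 0.5) of all regions was tested with limma 3.58.1 (trend, robust, two-sided) in R 4.3.3, with Benjamini-Hochberg adjustment over each table. Fold changes are on the log2(signal + 0.5) scale, which understates changes of low regions. Scripts were tested on simulated data. edgeR 4.0.16 and DESeq2 1.42.0 on recovered reads, other scalings, pseudocounts, windows, the replicate number as a block and leaving out each library were alternatives. Sums per library were compared by exact permutation tests (SciPy 1.17.1). Levels per kb divide by region length. Genes were from GENCODE vM21, and 0 regions passed a chromosome end of GRCm38. Without spike-in, a change of a mark over the whole genome is removed by scaling. Every region in the Hoxc windows was named, and of the gene lists (TALE cofactors, Polycomb and Trithorax, limb position, stromal, blood and endothelial markers) at most 3 regions of smallest limma p per list and mark, with the H3K27ac value of Meis2 added after it was seen. Members and lists were chosen with earlier results of these data known.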

Additional observations from a re-analysis of the deposited data

How the results depend on the processing

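The balance of the marks differed between ages by 0.42 to 0.59 (log2) with single libraries left out, and summed H3K27ac by 0.26 to 0.31. Summed H3K27me3 differed by -0.32 to -0.15, and by -0.57 as the mean over regions. That mean gives each region equal weight, including the 2 regions of 1 kb listed for young cells only (log2 -1.18 and -1.81). Their part in it is not independent of that listing. The count of called H3K27ac regions was 1 in place of 0 with a pseudocount of 2, without the lowest 25% of regions, with edgeR and with the replicate block, and 0 to 1 with single libraries left out. That of H3K27me3 was 2 on the signal as deposited and 1 with edgeR, and 0 with any library left out. The cause was not tested. The age difference of the ratio of 5′ to 3′ signal reversed for H3K27me3 with a window of 10 kb (0.30) and as a mean over regions (0.36). Both 1-kb H3K27me3 regions listed for young cells only lie on the 3′ side. The value as a mean over regions is thus not independent of that listing. With single libraries left out the age difference of this ratio ranged from -0.24 to 0.13 for H3K27me3 and from -0.37 to 0.19 for H3K27ac. Hoxc against Hoxb lay between -0.023 and 0.41 in H3K27ac and between -0.074 and 0.011 in H3K27me3. Among single regions, the sign reversed for the Hoxc13 H3K27ac region (-0.033 to 0.45 with single libraries left out), the 1-kb H3K27ac region (-0.17 to 0.82), and the 5-kb (-0.021 as deposited, -0.14 to 0.25 with single libraries left out) and 15-kb (-0.27 to 0.040) H3K27me3 regions. Replicate numbers were shared between ages, but deviations of same-numbered libraries correlated by only -0.05 to 0.07 for H3K27ac and -0.08 to 0.04 for H3K27me3. The main test was designed without pairs, and whether the numbers stand for pairs was not tested. With the block the count of called regions over the whole table was 81 against 26 for H3K27ac and 309 against 137 for H3K27me3, and the summed differences stayed 0.29 and -0.25 with an exact p of 0.25, the smallest that 3 pairs allow. With edgeR, DESeq2 and the signal as deposited the counts were 96, 6 and 105 for H3K27ac and 394, 76 and 774 for H3K27me3. With 10-kb windows no Hoxb H3K27ac region was left, so that comparison has no value. Regions of 1 kb rested on at most 11 reads per library, so only large differences were detectable there.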
